A study of Mus musculus with 96 samples.

Results

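The nuclei described here came from the 2N sorting gate of a mouse pancreatic cancer cell line, and they were divided by the state of the first part of chromosome 8. Of 47 single nuclei of that gate, 30 had a loss of proximal chromosome 8 relative to the middle of the same chromosome, and 17 did not. The members were chosen by 1 measured number per nucleus, the median of the deposited copy ratio over the 76 bins before position 43640396 of chromosome 8, divided by the median over the 90 bins from there to 91050078, in the mm9 build. Nuclei below 0.8 are called loss nuclei and nuclei at 0.8 or more intact nuclei. Loss names a lower copy number of the proximal than of the middle part, and not an event. All other autosomes were then compared between both groups.

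The whole series held 96 libraries of KPC1199EGFP, among them 94 single nuclei and 2 bulk samples. The 2N, 2N+ and 4N gates held 47, 35 and 12 of the single nuclei. Loss and intact nuclei shared everything the labels record. They came from 1 untreated adherent culture at passage 9 of a line with a C57BL/6 strain background and EGFP, a green fluorescent protein used as a label. DAPI, a dye that binds DNA, was used to sort nuclei by DNA content, and the genome of each nucleus was amplified and sequenced. The labels give neither a driver mutation nor the number of clones the line was grown from, so the groups are cells of 1 line and not independent tumours. Chromosome 8 state was not a condition set by the experiment.

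Copy number profiles of single nuclei record the gains and losses that each cell inherited or acquired. Cells that divide with chromosome segregation errors gain or lose whole chromosomes, while a change inside a chromosome leaves a breakpoint, whose position can be shared by the descendants of the cell in which it arose. A partial change that many cells of a culture share at 1 position can therefore be set against their other chromosomes. Mouse chromosome 8 carries, among others, Insr, the insulin receptor gene, Fgfr1, a receptor for fibroblast growth factors, Dlc1, known as a tumour suppressor, Fat1, an atypical cadherin, and Cdh1, the gene of the adhesion protein E-cadherin. In the order of the 1043 protein-coding genes of chromosome 8 in RefSeq GRCm38.p6, Insr was number 1, Fgfr1 number 207, Dlc1 number 267, Fat1 number 297 and Cdh1 number 820. The values below are in mm9, no gene was placed in a bin, and which of these genes lie in the proximal part was not determined.

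The deposited values are segmented ratios in bins whose median width was 486 kb, 4636 of them on autosomes. The read depth behind the ratios is unknown. The copies of a nucleus are its ratios times the factor that best brought its autosomes to whole numbers. After this scaling chromosomes 4, 7, 9, 10 and 13 were at 2 copies in all 47 nuclei of the gate. Standard deviations below are over nuclei of 1 culture, which are not replicates of a condition, so no p-value is given. Shares carry exact Clopper-Pearson 95% intervals that cover counting error only.

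The ratio that formed the groups is a description and no test was made of it. It lay between 0.528 and 0.738 in the 30 loss nuclei, with a median of 0.687, and between 0.803 and 1 in the 17 intact nuclei, with a median of 1. The ratio was exactly 1 in 16 of the 17 intact nuclei. The last nuclei inside the threshold were number 10, with 0.721, and number 20, with 0.738. The first outside it was number 24, with 0.803, and the next had 1. Loss nuclei were 63.8% of the gate (48.5 to 77.3%). Among 2N+ nuclei, 3 of 35 lay below 0.8 by the same ratio, which is 8.57% (1.80 to 23.1%), and among 4N nuclei 6 of 12 did. The bulk 2N library gave 0.756, where the mean profile of its 47 nuclei gave 0.784. The bulk 2N+ library gave 0.946, where the mean profile of its 35 nuclei gave 0.965.

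In 29 of the 30 loss nuclei the proximal part was at 2 copies and the middle part at 3. The remaining loss nucleus, number 31, had 2 and 4 copies. Whether the proximal part was lost or the rest of the chromosome gained was not tested. Proximal chromosome 8 averaged 2.05 ± 0.036 copies in loss nuclei and 2.66 ± 0.452 copies in intact nuclei (SD, n = 30 and 17). The intact group was itself of several kinds: 11 nuclei had 3 copies of both parts, 5 had 2 copies of both parts, and nucleus 24 had 2.30 copies of the proximal and 2.86 copies of the middle part. Loss and intact nuclei therefore overlapped in the number of proximal copies. The groups differ in the ratio of both parts, which was exactly 1 in 16 of 17 intact nuclei and 0.803 in nucleus 24.

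The step lay at nearly the same place in all loss nuclei. Each nucleus's own border was taken as its largest rise between neighbouring bins. It was at 43640396 in 27 of 30 loss nuclei, at 43134034 in 1 and at 44190671 in 2, so both other positions were 1 bin away from the most frequent one. The chromosome was 1 uninterrupted segment up to the step in 26 of 30 loss nuclei and held further breakpoints in 4. The step itself had a median of 0.928 copies and ran from 0.702 to 1.84 copies.

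**Figure D1:**
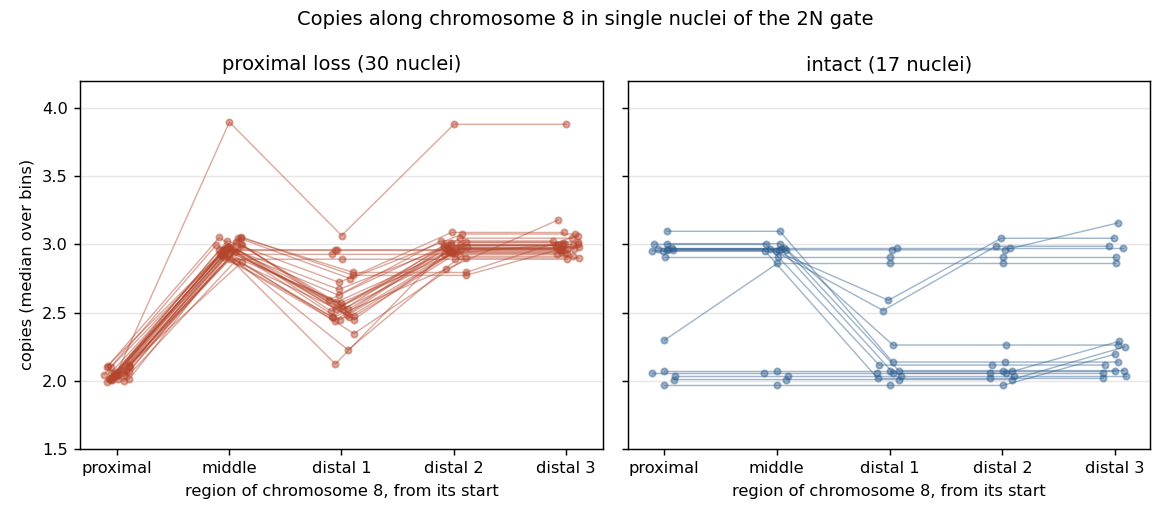
Copies (median over bins) in 5 consecutive regions of chromosome 8, with 1 line for each 2N nucleus, for 30 loss nuclei on the left and 17 intact nuclei on the right; points are shifted sideways for visibility. Loss nuclei lie near 2 copies in the proximal region and, but for 1, near 3 in the middle, while 6 of the 17 intact nuclei drop between the middle and the distal regions.

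The rule did not use the part of chromosome 8 after 91050078, and this part also differed. It adjoins the middle part, which the rule did use, so its difference is not independent of the rule. From 97123864 to 117492118, over 42 bins, loss nuclei had from 2.77 to 3.88 copies with a median of 2.97, and intact nuclei had from 1.97 to 3.05 copies with a median of 2.11. In loss nuclei these copies were 0.908 to 1.03 times those of the middle part. No loss nucleus was at 2 copies there (0 of 30), against 11 of 17 intact nuclei. Among the latter were the 5 intact nuclei with 2 copies of the proximal and middle parts. The means were 2.99 ± 0.183 copies in loss nuclei and 2.38 ± 0.441 copies in intact nuclei (SD, n = 30 and 17). Of the 85 bins after 91050078, 78 had a mean at least 0.3 copies higher in loss nuclei, which is 91.8%, and 0 had a lower one.

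Part of this difference was a second break in intact nuclei. The distal region was below 0.8 of the middle region in 0 of 30 loss nuclei (up to 11.6%) and in 6 of 17 intact nuclei, or 35.3% (14.2 to 61.7%). The 6 were all among the 11 intact nuclei with 3 proximal copies, and the 5 intact nuclei with 2 copies had a ratio of this region to the middle of 1 in each. Further on, from 117492119, 2 of these 5 had more copies than in the middle: nucleus 32 had 2.25 and nucleus 45 had 2.20 copies. The short stretch from 91050079 to 97123863, 13 bins, was apart from its neighbours in loss nuclei. It averaged 2.60 ± 0.219 copies in loss nuclei and was farther than 0.2 copies from a whole number in 24 of 30. In intact nuclei it averaged 2.33 ± 0.381 copies and was not whole in 3 of 17, while 11 were at 2 copies. A like dip was seen in intact nuclei 16 and 35, with 2.59 and 2.52 copies. Among intact 2N+ nuclei, for example, numbers 8, 10 and 18 had 2.49, 2.57 and 2.55 copies there. In contrast, 2N+ number 4 had 2.87 there and in the middle. The dip was therefore not particular to loss nuclei. Both neighbouring regions averaged close to 3 copies in loss nuclei.

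Outside chromosome 8, loss nuclei had fewer chromosomes with additional copies. A bin was called where the group means differed by at least 0.3 copies. Of 4385 autosomal bins outside chromosome 8, 1058 were called, which is 24.1%; 1045 bins (23.8%) were lower and 13 bins (0.296%) higher in loss nuclei. The called bins formed 17 uninterrupted runs on 7 chromosomes, of which 16 were lower in loss nuclei and 1 was higher. The difference per bin, loss minus intact, ran from -1.43 to 0.90 copies with a median of -0.05. The direction of many of these calls depended on the scale. When each nucleus was divided by its own autosomal median and multiplied by 2, with no factor of its own, the median bin difference was 0.20 copies. On that scale 11.1% of called bins were lower in loss nuclei, against 98.8% on the main scale. The autosomal median stood at 2 copies in 26 of 30 loss nuclei and in 9 of 17 intact nuclei, so that scale divides nuclei by different copy numbers. With chromosomes 4, 7, 9, 10 and 13 set to 2 copies, 507 bins were lower and 13 higher in loss nuclei.

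**Figure D2:**
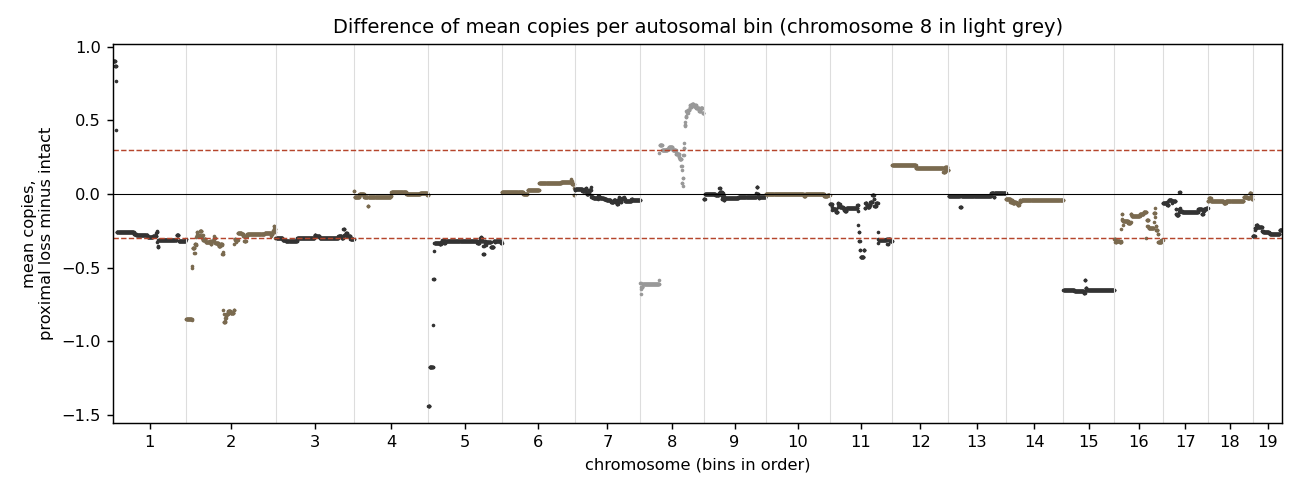
Difference of mean copies between 30 loss and 17 intact nuclei for each autosomal bin, in genome order, with dashed lines at 0.3 copies above and below 0. Chromosome 15 lies wholly below the lower line, chromosomes 1, 2, 3, 5, 11 and 16 in parts, and the start of chromosome 1 is the stretch above the upper line outside chromosome 8.

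Counted as whole chromosomes, 7 of the 18 other autosomes (38.9%) differed by at least 15 percentage points in the share of nuclei at 3 copies or more, or at 4 or more. These were chromosomes 15, 2, 5, 3, 1, 19 and 12. For 15, 2 and 5 the intervals of both groups were apart. Chromosomes 4, 7, 9, 10 and 13 did not differ by any nucleus.

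Chromosome 15 had the largest difference in share among the 18 autosomes. It carries Myc, the gene of a transcription factor that drives cell growth. It was at 2 copies in all 30 loss nuclei, with 1.99 to 2.08 copies and a median of 2.03. In the 17 intact nuclei it had 1.99 to 3.06 copies with a median of 2.90, and 12 of them were at 3 copies. The share at 3 copies was 0% (0 to 11.6%) in loss nuclei and 70.6% (44.04 to 89.7%) in intact nuclei. All 203 bins of the chromosome were called, and their mean was 2.03 ± 0.0207 copies in loss nuclei and 2.68 ± 0.395 copies in intact nuclei (SD, n = 30 and 17), a difference of -0.65. The direction held with each nucleus divided by its autosomal median, where the median difference over the chromosome was -0.28. The 5 intact nuclei at 2 copies of chromosome 15 overlapped with the loss nuclei. Among intact nuclei, 10 of the 11 with 3 proximal copies of chromosome 8 and 2 of the 5 with 2 copies had the third chromosome 15.

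Chromosome 5 was at 2 copies in all 30 loss nuclei, with 1.96 to 2.06 copies and a median of 2.02. In intact nuclei it had 1.94 to 3.02 copies with a median of 2.05, and 6 of 17 were at 3 copies, or 35.3% (14.2 to 61.7%). The chromosome carries Cdk6, a kinase of the G1 phase of the cell cycle, as number 25 of its 1269 protein-coding genes, and Brca2, a DNA repair gene, as number 1261. From its first bin to 111455425, over 206 bins, it averaged 2.46 ± 0.0386 copies in loss nuclei and 2.87 ± 0.545 copies in intact nuclei, and from 112829703 to its end, over 82 bins, 2.05 ± 0.0456 copies in loss nuclei and 2.38 ± 0.448 copies in intact nuclei. These differences, -0.41 and -0.33 copies, were -0.013 and -0.0041 copies with each nucleus divided by its autosomal median.

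The start of chromosome 5 was amplified in nuclei of both groups. Its breakpoint at 14159646 was found in 30 of 30 loss nuclei and 17 of 17 intact nuclei. Before 5715258 there were 7.74 to 10.4 copies, median 8.93, in loss nuclei and 6.39 to 13.7 copies, median 9.56, in intact nuclei. The lowest bin difference of the genome, -1.43 copies, lay in this stretch. Relative to the rest of the same chromosome the start was 4.44 ± 0.240-fold in loss nuclei and 4.44 ± 0.452-fold in intact nuclei, so this ratio differed by less than the spread. It is an average over the copies of chromosome 5 in a nucleus. Relative to chromosome 4 the start was 4.46 ± 0.237-fold in loss nuclei and 5.19 ± 1.20-fold in intact nuclei. The high copies belonged to the 6 intact nuclei with 3 copies of chromosome 5, which had 13.02 to 13.7 copies, while the other 11 intact nuclei had 6.39 to 10.2 copies. These values of the chromosome start were singled out after they had been seen.

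Chromosome 2 had fewer copies in loss nuclei. By its median over bins it was at 2 copies in 17 and at 3 in 13 of the 30 loss nuclei, with 1.97 to 3.02 copies and a median of 2.23. Of the 17 intact nuclei, 1 was at 2 copies, 10 at 3 and 6 at 4, with 2.09 to 3.93 copies and a median of 2.99. The share at 3 copies or more was 43.3% (25.5 to 62.6%) in loss nuclei and 94.1% (71.3 to 99.9%) in intact nuclei. In the longest called run of the chromosome, from 60504959 to 105161090 over 89 bins, the mean was 2.35 ± 0.265 copies in loss nuclei and 2.92 ± 0.446 copies in intact nuclei. From the first bin to 23840869, over 41 bins, it was 2.28 ± 0.302 copies in loss nuclei and 2.94 ± 0.466 copies in intact nuclei. Between 35954160 and 57615271, over 43 bins, it was 1.96 ± 0.175 copies in loss nuclei and 2.28 ± 0.449 copies in intact nuclei. With each nucleus divided by its autosomal median, the differences of these 3 runs, -0.57, -0.65 and -0.32 copies, were -0.18, -0.26 and -0.0072 copies.

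The breakpoints of chromosome 2, which were examined after their values were seen, divided the loss nuclei. A step up at 97908371 was found in 15 of 30 loss nuclei, or 50% (31.3 to 68.7%), and in 0 of 17 intact nuclei (up to 19.5%). Another step up, at 75743671, was found in 14 of 30 loss nuclei, or 46.7% (28.3 to 65.7%), and in 16 of 17 intact nuclei, or 94.1% (71.3 to 99.9%). No nucleus of either group had both steps. A step down at 14885854 had the same counts as the step at 75743671, 14 loss nuclei and 16 intact nuclei. The remaining nucleus of each group had neither step. Loss nuclei thus held 2 forms of chromosome 2, of which 1 was also found in intact nuclei.

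Chromosome 3 was at 3 copies in all 30 loss nuclei, with 2.94 to 3.15 copies. Of the intact nuclei 12 were at 3 copies and 5 at 4, or 29.4% (10.3 to 55.96%), with 2.97 to 3.996 copies. The interval for loss nuclei, 0 to 11.6%, overlapped with it. The run from 91301562 to 129331333, over 75 bins, averaged 3.01 ± 0.0397 copies in loss nuclei and 3.31 ± 0.417 copies in intact nuclei. The run from 17107666 to 46234205, over 57 bins, averaged 3.02 ± 0.0405 copies in loss nuclei and 3.33 ± 0.439 copies in intact nuclei. Both differences turned positive, to 0.09 and 0.08 copies, with each nucleus divided by its autosomal median.

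Chromosome 1 was at 3 copies in 16 of 30 loss nuclei, or 53.3% (34.3 to 71.7%), and in 14 of 17 intact nuclei, or 82.4% (56.6 to 96.2%). The intervals overlapped. It had 2.02 to 3.02 copies, median 2.91, in loss nuclei and 1.97 to 3.11 copies, median 2.98, in intact nuclei. Its longest called run, from 98286358 to 178722534 over 76 bins, averaged 2.55 ± 0.460 copies in loss nuclei and 2.87 ± 0.327 copies in intact nuclei, and this difference was 0.02 copies with each nucleus divided by its autosomal median.

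The start of chromosome 1 went the other way and was the only called run outside chromosome 8 that was higher in loss nuclei. From 3559438 to 15332557, over 13 bins, the mean was 3.69 ± 1.07 copies in loss nuclei and 2.84 ± 0.372 copies in intact nuclei, and the run was named after its values were seen. Most loss nuclei were not above the intact nuclei there: 10 of 30 loss nuclei (33.3%, 17.3 to 52.8%) and 0 of 17 intact nuclei (up to 19.5%) had 4 copies or more, and 9 of 30 loss nuclei had 5 or more. The intervals overlapped slightly.

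Chromosome 19 was at 4 copies in 1 of 30 loss nuclei and in 5 of 17 intact nuclei. Their shares were 3.33% (0.0844 to 17.2%) in loss nuclei and 29.4% (10.3 to 55.96%) in intact nuclei, with overlapping intervals. Chromosome 12 was the 1 named autosome with more copies in loss nuclei: 4 loss nuclei had 3 copies and 1 had 4, against 0 of 17 intact nuclei (up to 19.5%). The share of loss nuclei at 3 copies or more was 16.7% (5.64 to 34.7%), which overlaps with the interval of intact nuclei. On chromosome 11, home of Trp53, the end from 96097252, over 55 bins, averaged 2.86 ± 0.220 copies in loss nuclei and 3.18 ± 0.476 copies in intact nuclei. That difference was 0.10 copies with each nucleus divided by its autosomal median. Chromosome X was at 1 copy in all 30 loss nuclei, against 13 of 17 intact nuclei, with 4 intact nuclei at 2 copies. Chromosome Y, covered by 3 bins, was at 0 copies in all 30 loss nuclei, and 4 of 17 intact nuclei had at least 1.

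**Figure D3:**
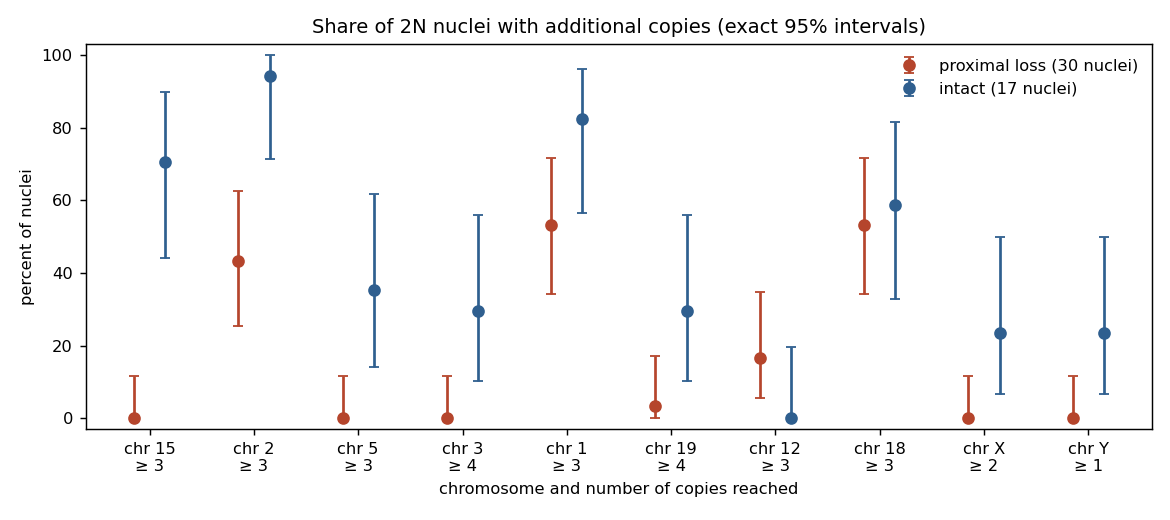
Share of 2N nuclei that reached the stated number of copies, for the 7 autosomes that differed by at least 15 percentage points and for chromosomes 18, X and Y, with loss nuclei left of intact nuclei; bars are exact 95% intervals. The intervals of both groups are apart for chromosomes 15, 2 and 5, and the point for loss nuclei is above that for intact nuclei for chromosome 12 alone.

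Several of the differences came from the same intact nuclei. The 6 intact nuclei with 3 copies of chromosome 5 all had chromosome 2 at 4 copies, chromosome 15 at 3, the end of chromosome 11 from 95625099 at 4 and the distal break of chromosome 8. In addition 5 of the 6 had chromosome 19 at 4 copies and 5 had chromosome 18 at 2. None of the 30 loss nuclei combined chromosome 2 at 4 with 5 and 15 at 3 copies. Another 3 intact nuclei had 3 copies of chromosome 16, and all 3 had chromosome 3 at 4 and chromosome 15 at 3 copies. Any of 5 gains (4 copies of 3 or 19, 3 of 5 or 15, 2 of X) was present in 1 of 30 loss nuclei. It was present in 13 of 17 intact nuclei, or 76.5% (50.1 to 93.2%). These gains were picked after each had been seen more often in intact nuclei, so the contrast follows from the choice. Left out were gains that went the other way. Chromosome 12 had at least 3 copies in 5 of 30 loss and 0 of 17 intact nuclei. The start of chromosome 1 had at least 4 in 10 of 30 and 0 of 17.

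Without the 6 nuclei, 590 bins were called lower in loss nuclei, against 1045 with them. All 203 bins of chromosome 15 and all 308 bins of chromosome 3 were then called, together with 67 bins of chromosome 2, 9 of chromosome 16 and 3 of chromosome 5. The 13 bins at the start of chromosome 1 stayed higher. When the 11 intact nuclei with 3 proximal copies stood for the intact group, 1716 bins were lower in loss nuclei, so the number of calls depended on which intact nuclei were used.

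**Figure D4:**
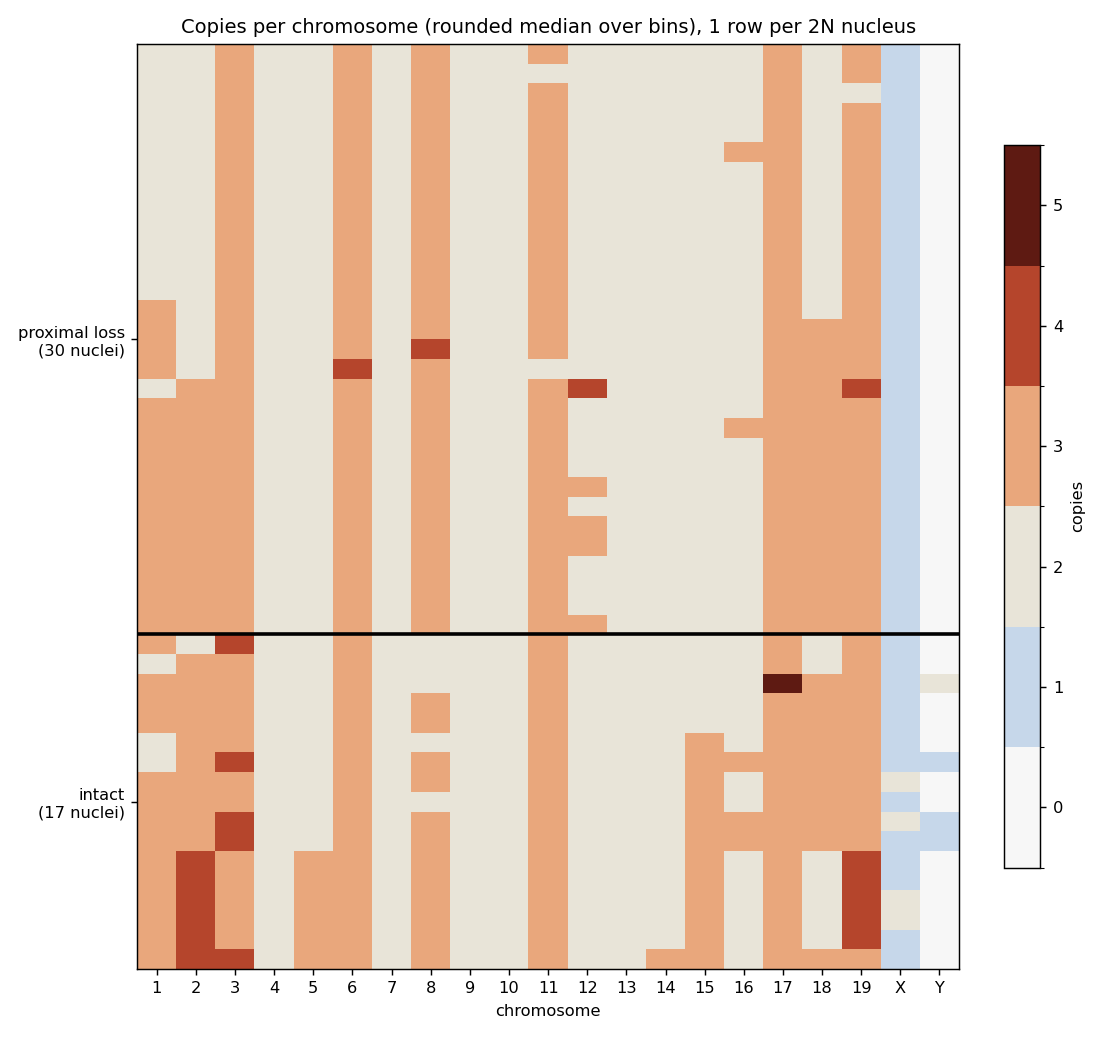
Copies of each chromosome (rounded median over bins) as colours, with 1 row for each 2N nucleus, 30 loss nuclei above the black line and 17 intact nuclei below it, ordered within each group by the states of chromosomes 15, 5, 2, 1, 18 and 3. In loss nuclei chromosome 15 is at 2 copies throughout, while 12 of the 17 intact nuclei have 3 copies of it. Chromosomes 1, 2 and 18 are all at 2 copies in 13 of the 30 loss nuclei and all at 3 in 12, and the remaining loss nuclei are mixed.

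Loss nuclei were of 2 main kinds. In 13 of 30 chromosomes 1, 2 and 18 were all at 2 copies, and in 12 they were all at 3. The same combinations were found in 0 and 7 of the 17 intact nuclei. Chromosome 18, which carries Smad4, the mediator of TGF-beta signalling, did not itself separate the groups, with 16 of 30 loss nuclei and 10 of 17 intact nuclei at 3 copies. It had the copy number of chromosome 1 in 28 of 30 loss nuclei, or 93.3% (77.9 to 99.2%), and in 9 of 17 intact nuclei, or 52.9% (27.8 to 77.02%).

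The form of chromosome 2 and the start of chromosome 1 followed the copy number of chromosome 1 in loss nuclei. The step of chromosome 2 at 97908371 was present in 13 of 14 loss nuclei with 2 copies of chromosome 1 and in 2 of 16 with 3 copies. The step at 75743671 was present in 1 of 14 and in 13 of 16. At least 4 copies of the start of chromosome 1 were present in 10 of the 14 loss nuclei with 2 copies and in 0 of the 16 with 3 copies, and its medians were 5.04 and 2.998 copies. More than 2 copies of chromosome 12 were seen in 1 of 14 and in 4 of 16.

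Both kinds were chosen by the chromosome 8 ratio, so a low ratio in both follows from the rule. The proximal over middle ratio had a median of 0.682 in the 14 loss nuclei with 2 copies of chromosome 1 and of 0.689 in the 16 with 3 copies. Chromosome 15 was at 2 copies in every nucleus of both kinds. Averaged over the autosomes, nuclei had 2.37 ± 0.0620 copies with 2 copies of chromosome 1 and 2.48 ± 0.0343 copies with 3 (SD, n = 14 and 16). Chromosome 1 is part of this mean, so a lower mean with 2 copies follows in part from the split.

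Counted as sets of copies over the 18 other autosomes, the 30 loss nuclei had 11 different sets and the 17 intact nuclei 10. The most frequent set of loss nuclei, in 10 of them, had 2 copies of chromosomes 1, 2 and 18 and 3 copies of 3, 6, 11, 17 and 19, with 2 copies of the rest. The next, in 7 loss nuclei, had 3 copies of 1, 2 and 18 in addition. Only this second set was found in both groups, in 7 loss nuclei and 2 intact nuclei. The most frequent set of intact nuclei, in 5 of them, had 4 copies of 2 and 19, 3 copies of 5 and 15 and 2 copies of 18.

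Over the bins outside chromosome 8, the profile of every loss nucleus (30 of 30) correlated best with another loss nucleus. Of the 17 intact nuclei, 14 correlated best with another intact nucleus, and numbers 12, 33 and 45 with a loss nucleus. All of these 3 had 2 copies of chromosome 15. The median Pearson correlation was 0.844 over 435 pairs of loss nuclei, 0.813 over 136 pairs of intact nuclei and 0.788 over 510 pairs of 1 loss and 1 intact nucleus. The ranges overlapped, and bins within a segment share a value, so these correlations describe likeness only.

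Loss nuclei did not stand apart in the number of breakpoints. They had 7 to 32 inside the autosomes, median 18, and intact nuclei had 5 to 34, median 17. Outside chromosome 8 the median was 14.5 in loss nuclei and 16 in intact nuclei. Breakpoints of chromosome 16 occurred at like rates, for example at 19135649 in 14 of 30 loss nuclei (46.7%) and 8 of 17 intact nuclei (47.1%). Mean copies over the autosomes were 2.43 ± 0.0719 in loss nuclei and 2.56 ± 0.131 in intact nuclei (SD, n = 30 and 17), and their ranges, 2.27 to 2.56 in loss nuclei and 2.28 to 2.79 in intact nuclei, overlapped. The root mean square distance of the autosomal bins from whole copies had a median of 0.0685 in loss nuclei and 0.0710 in intact nuclei, and was above 0.15 in 0 loss nuclei and 2 intact nuclei, numbers 7 and 24. The index numbers in the sample titles ran from 1 to 48 in loss nuclei and from 6 to 46 in intact nuclei.

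The division by chromosome 15 was also seen in nuclei of the other gates, to which the same rule was applied. Those gates were scaled by setting chromosomes 4, 7, 9, 10 and 13 to 2 copies, so a doubling of the whole genome is not seen. In the 2N+ gate 0 of 3 loss nuclei and 31 of 32 intact nuclei had at least 3 copies of chromosome 15, and in the 4N gate 0 of 6 loss nuclei and 6 of 6 intact nuclei did. Measured with no scaling, as the ratio of chromosome 15 to chromosome 4, the median was 1.01 in 2N loss nuclei and 1.43 in 2N intact nuclei, 1.03 in 2N+ loss nuclei and 1.47 in 2N+ intact nuclei, and 1.01 in 4N loss nuclei and 1.45 in 4N intact nuclei. In the 2N+ gate 1 intact nucleus had 1.00, so the groups overlapped there too. They overlapped in the 2N gate but not among 4N nuclei, with 0.998 to 1.17 in loss nuclei and 1.29 to 1.69 in intact nuclei. The 4N nuclei nearest to this gap were not resolved into whole copies. Loss nuclei 1 and 12 had ratios of 1.17 and 1.15 and distances from whole copies of 0.196 and 0.183. Intact nucleus 2 had 1.29 and a distance of 0.206, and was counted at 3 copies of chromosome 15 by rounding. The split of the 4N gate therefore rests in part on unclear profiles.

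All 3 loss nuclei of the 2N+ gate had 2 copies of chromosome 1, the chromosome 2 step at 97908371 and at least 4 copies of the start of chromosome 1. Their profiles were noisy. Numbers 22, 24 and 25 had 89, 81 and 32 breakpoints and distances from whole copies of 0.162, 0.143 and 0.112. The highest values in 2N loss nuclei were 32 and 0.0948. Intact 2N+ number 31 was noisy too, with 68 breakpoints and 0.164. Among the 32 intact nuclei of the 2N+ gate, 4 had 2 copies of chromosome 1 and 0 had the step at 97908371. At least 4 copies of the start of chromosome 1 were present in 2 of them. In the 4N gate chromosome 2 did not follow the 2N gate: 5 of 6 loss nuclei and 5 of 6 intact nuclei had at least 3 copies, and the step at 75743671 was found in 4 of 6 loss nuclei and 0 of 6 intact nuclei. A step had to reach 0.5 copies on this scale, which is the size of 1 copy in a doubled nucleus. At least 4 copies of chromosome 3 were present in 0 of 3 loss nuclei and 30 of 32 intact nuclei among the 2N+ nuclei, and among the 4N nuclei in 0 of 6 loss nuclei and 4 of 6 intact nuclei. With 3 and 6 loss nuclei, a count of 0 allows shares of up to 70.8% and 45.9%.

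**Figure D5:**
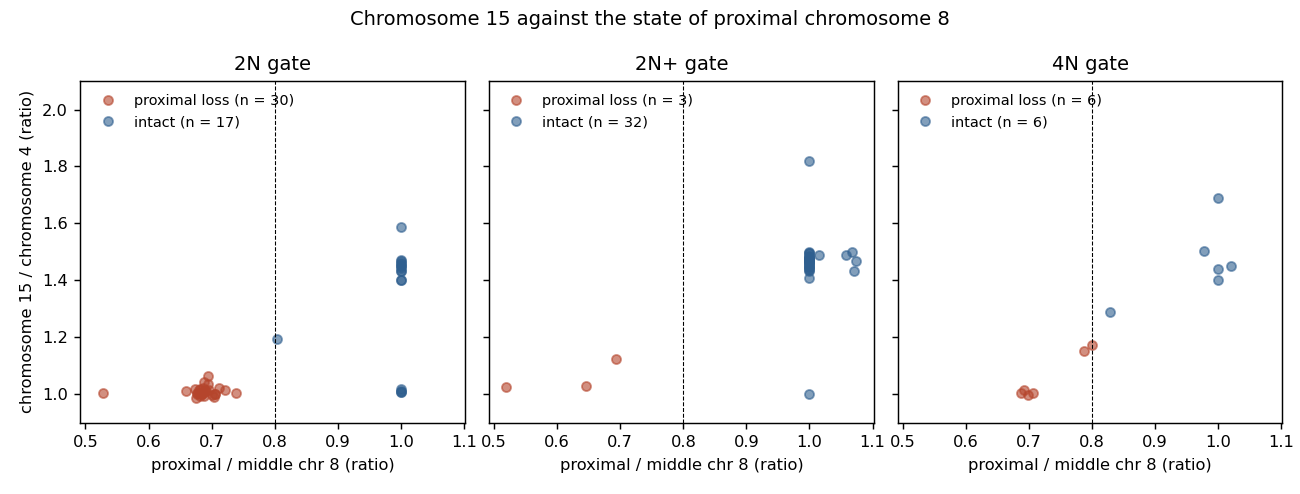
Ratio of chromosome 15 to chromosome 4 (vertical) against the ratio of proximal to middle chromosome 8 (horizontal), 1 point per nucleus, for the 2N, 2N+ and 4N gates; the dashed line is the threshold of 0.8. Loss nuclei, left of the line, lie between 0.989 and 1.17 on the vertical axis in all 3 gates, and intact nuclei have medians of 1.43, 1.47 and 1.45.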

How the data were processed

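The authors deposited 1 table of segmented copy ratios, linear and relative to each library's own mean of about 1, in bins along the genome. The submitters' processing notes name Bowtie 1.0 and mm9. For bin construction, GC correction and segmentation, the method is not given in the sources used here. Those deposited ratios hold no counts, so depth is unknown and its effect on error could not be assessed. Titles gave the gate of each library. The ratios of each library were first divided by its autosomal median. Copies are these values times a factor between 1.5 and 6, tried every 0.05. The factor used for a library was the one with the least squared distance of the autosomes to whole numbers. Copies of a chromosome or region are the median over its bins, and whole means within 0.2. Named are autosomes whose share at 3 or 4 copies or more differs by 15 points, the 10 longest called runs, the regions of chromosome 8, the autosomes with the least difference, X and Y. The members and lists were chosen with earlier results of these data known. Breakpoints outside chromosome 8, combinations and the other gates were examined after values were seen. The calculations were tested on simulated data. Bin positions are counted from 1. Calculations used pandas 2.3.3, numpy 2.4.6 and scipy 1.17.1 under Python 3.11.15, with figures from matplotlib 3.10.9. Alternatives were other thresholds and call sizes, 2 other scales, and leaving out intact nuclei.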

Additional observations from a re-analysis of the deposited data

Results flagged for a closer look

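Among the groups of 4 to 10 nuclei, 2 values lay far from the rest of their group. The criterion is one that chance is taken to meet in about 1 in 20 groups. That rate need not hold for copies that lie near whole numbers. Nor need it hold for the chromosome 8 ratio, by which the nuclei were divided. Both values are therefore descriptions only. In the 5 intact 2N nuclei with 2 copies along proximal and middle chromosome 8, the highest ratio of chromosome 3 to chromosome 4 was 1.96. That nucleus, number 13, had 3.95 copies of chromosome 3. In the 6 intact nuclei of the 4N gate, the lowest ratio of proximal to middle chromosome 8 was 0.829, just outside the threshold. The same nucleus had a chromosome 15 over chromosome 4 ratio of 1.29, the lowest of those 6.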

How the results depend on the processing

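Of 182 values recomputed for 31 results, 163 kept their sign and moved little. Little means less than the spread between nuclei, the interval of a share or, for counts, 1.5 times. Some could not move, since leaving out intact nuclei leaves a share of loss nuclei unchanged. Where the spread was wide, a difference could all but vanish and still be counted. The runs of chromosome 5 did so over the autosomal median, from -0.41 to -0.013 and from -0.33 to -0.0041 copies. The count is therefore no measure of robustness. With a threshold of 0.85 the loss nuclei numbered 31. The autosomes past 15 points numbered 8 with the mean over bins and with the 11 intact nuclei of 3 proximal copies, and 7 otherwise. Bins lower in loss nuclei, 1045, numbered 1715 at 0.2 copies, 293 at 0.5 copies, 281 by medians at 0.5 copies, 590 without the 6 intact nuclei with 3 copies of chromosome 5, 1716 with the 11 intact nuclei of 3 proximal copies, 507 on the scale of 5 disomic chromosomes and 67 over the autosomal median. Bins higher in loss nuclei, 13, numbered 108 at 0.2 copies, 0 by medians at 0.5 copies and 535 over the autosomal median. On that last scale 4 runs reversed, to 0.0243 copies on chromosome 1, 0.0904 and 0.0831 on chromosome 3 and 0.100 on chromosome 11. The shift of the median bin was -0.05 copies on the main scale, -0.04 on the scale of 5 disomic chromosomes and 0.20 over the autosomal median. Breakpoints of loss nuclei had a median of 9 when steps of at least 0.5 copies were counted. The choices of intact nuclei, and both other scales for called bins, were added after seeing the data. No paired analysis was possible because the nuclei are single cells of 1 culture and no number links a loss nucleus to an intact one. Segmented ratios without depth give no error for a single nucleus, and changes shorter than a segment are not seen.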

Other observations

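A few nuclei lay between the groups on more than 1 chromosome. The 2N nucleus number 24, at 0.803 of the chromosome 8 ratio, had a chromosome 15 over chromosome 4 ratio of 1.195 and a root mean square distance from whole copies of 0.161. In the 4N gate, 2 loss nuclei at 0.787 and 0.7998 of the chromosome 8 ratio had chromosome 15 over chromosome 4 ratios of 1.15 and 1.17, with distances from whole copies of 0.183 and 0.196. The second of these was below the threshold of 0.8 in the fourth decimal. All 30 loss nuclei of the 2N gate had chromosome 15 over chromosome 4 ratios of at most 1.06. What sets number 24, an intact nucleus, and both of these 4N nuclei apart was not tested.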
